A study of Homo sapiens with 6 samples.

Results

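The 47 genes described here are 29 that comprise ATF4 and genes commonly given as its targets, and 18 genes of cytosolic tRNA synthetases. They were taken by symbol from a count table of 36601 genes, under the symbols used in that table, so that AARS, CARS and the like stand for the genes now called AARS1 and CARS1. When amino acids run short, uncharged tRNA activates the kinase GCN2, eIF2α is phosphorylated, and general translation slows while ATF4 mRNA is translated more. ATF4 then pairs with C/EBP proteins on C/EBP-ATF response elements (CARE) and raises genes for amino acid uptake, amino acid synthesis and tRNA charging. In lymphocytes the same genes are known to be drawn on during growth, when cytokine receptors and mTORC1 raise the demand for amino acids. ATF4 is controlled largely at translation, so its mRNA is not a measure of its protein.

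NK92, a line of human natural killer (NK) lymphoma cells that depends on IL-2, was profiled by RNA-seq to ask how genes change when the long noncoding RNA miR155HG is silenced. One group stably carried a control shRNA (shCtrl) and the other an shRNA against miR155HG (shmiR155HG), with 3 libraries in each. All 6 libraries came from cells stimulated with both IL-2, at 1000 U/mL, and IL-12, at 10 ng/mL, for 12 h, so unstimulated cells and cells deprived of amino acids were not analysed here. The routine medium of the line held added non-essential amino acids. For shmiR155HG replicates 2 and 3 the treatment label names a differently numbered gene (shmiR156HG and shmiR157HG), and these libraries were grouped by their titles, which name shmiR155HG. The labels do not say whether replicates came from separate transductions or cultures, and the methods speak of separate experiments only in general, so p-values measure the spread between these libraries only, which may be technical.

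The letters of the CARE were looked for in the promoters of the genes, because this is a sequence through which ATF4 is known to act on its targets. Not all of the 47 genes are commonly given as such targets. RefSeq promoters (GRCh38.p14, 250 bases before to 50 after each start) were held for 37 of the 47 genes, and TGATGNAA on either strand was present for 13 of these, or 35.1%, against 4.46% of the 27305 genes with such a promoter. The stricter letters TGATGCAA, which are contained in the first motif, were present for 10 of them, or 27.0%, against 1.08% of all genes. A gene can have several starts, and counted by start the 57 promoters of these genes held TGATGNAA in 22.8%, against 3.62% of 35116. Of the 14 synthetases with a promoter, 7 held the letters, and of the 23 others, 6 did. The genes that held them were CEBPG, CHAC1, ASNS, SLC3A2, SLC1A4, SLC1A5, AARS, CARS, GARS, IARS, MARS, NARS and TARS. The stretches below are those of the genes whose levels are given in full further on, 5′ to 3′ on the strand of the gene, with the match in capitals. TTGCATCA and TTACATCA are matches read on the opposite strand.
CEBPG: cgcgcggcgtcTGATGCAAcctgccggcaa (chr19:33374060-33374089, + strand)
ASNS: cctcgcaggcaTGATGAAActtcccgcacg (chr7:97872458-97872487, − strand)
SLC3A2: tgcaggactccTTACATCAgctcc (chr11:62881725-62881748, + strand)
SLC1A5: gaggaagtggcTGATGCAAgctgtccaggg (chr19:46784893-46784922, − strand)
IARS: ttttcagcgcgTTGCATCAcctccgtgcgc (chr9:92293692-92293721, − strand)
NARS: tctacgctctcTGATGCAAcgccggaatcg (chr18:57621804-57621833, − strand)
Counted from the RefSeq start that each promoter belongs to, the capitals of ASNS begin 68 bases before it and those of SLC1A5 97 bases before it, while those of NARS and SLC3A2 begin at bases 15 and 38 of the transcript. The letters were at 1 of 3 starts for SLC3A2 and SLC1A5, and at 1 of 2 for CEBPG and ASNS. For each gene printed above, the start with the letters lies inside the gene, downstream of its first annotated base, and furthest for SLC3A2 and SLC1A5. A match describes these letters in this window only, and an absent match says nothing of the factor.

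Each library held between 33454786 and 39157264 counts, and 12263 genes were tested, those above 1 CPM (the read count scaled to the size of the library) in at least 2 libraries. MIR155HG, the silenced gene, had 73, 67 and 62 counts in shCtrl replicates 1 to 3 and 28, 19 and 10 in shmiR155HG replicates 1 to 3, without overlap (log2 fold change -1.78 ± 0.43 SE, adjusted p = 0.00450). All 6 NK cell markers looked at were detected, and their summed level was 2722 to 2812 CPM in shCtrl and 2026 to 2128 CPM in shmiR155HG, with GZMB and PRF1, which encode the cytotoxic proteins granzyme B and perforin, lower in shmiR155HG. The B cell markers summed to at most 1.13 CPM, the 3 monocyte and macrophage markers to at most 5.59 CPM and the erythroid markers to at most 0.0598 CPM, with HBB and HBG1 at 0 throughout. The T cell markers, the receptor genes TRAC, TRBC1 and TRBC2 and the coreceptor gene CD8B, summed to 373 to 396 CPM in shCtrl and 426 to 459 CPM in shmiR155HG. CD8B was at 0 throughout. TRBC2 was higher in shmiR155HG (log2 fold change 0.32, adjusted p = 2.75e-06), while TRAC and TRBC1 did not pass the test. The part of these markers in the results was not tested.

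Per kilobase of transcript, ATF4 was the most abundant of the 47 genes, at 229 CPM per kb in shCtrl. KARS followed at 111, then SLC1A5 at 105.8, SLC3A2 at 105.0, NARS at 102, WARS at 101 and YARS at 99.5 CPM per kb in shCtrl. From SLC1A5 to WARS, each gene differed from the next in this order by less than the SD of the libraries of one of them. The 18 synthetases spanned 11.1 (CARS) to 111 (KARS) CPM per kb in shCtrl, a 9.98-fold range. Synthetases filled most of the upper ranks, while the targets of ATF4 reached from the top to the limit of detection. ASNS, the asparagine synthetase that is a classical reporter of the response, was only at 3.06 CPM per kb in shCtrl, rank 40 of 47. A noncoding RNA that overlaps ASNS on the same strand had more counts than ASNS in shCtrl. How shared reads were split, which bears on this level and rank, was not tested. The cystine transporter SLC7A11 was at 1.47 and the cystathionine lyase CTH at 1.05 CPM per kb.

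**Figure D1:**
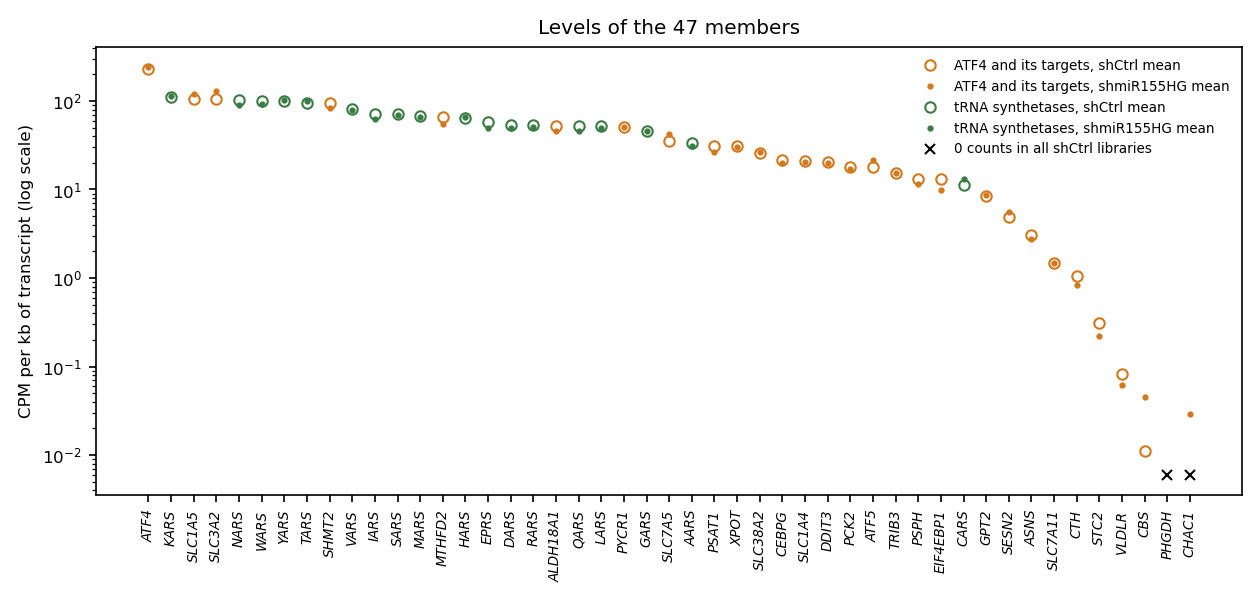
Mean level of each of the 47 genes in shCtrl (open circles) and shmiR155HG (dots), in CPM per kb of the canonical transcript on a log axis, in order of the shCtrl level, with genes at 0 counts in shCtrl as crosses at an arbitrary height. Synthetases (green) lie between 11.1 and 111 CPM per kb in shCtrl, while ATF4 and its targets (orange) run from 229 CPM per kb down to 0 counts, and the dot of CHAC1 rests on 5 counts in 1 library.

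At the bottom of this order, 4 genes did not pass the filter of 1 CPM and were left out of the test. PHGDH, which catalyses the first step of serine synthesis from glucose, had 0 counts in all 6 libraries, which allows a level of up to 0.0897 CPM in the library with the fewest counts, for counting error only. CHAC1, a glutathione-degrading enzyme and a sensitive target of the response, had 5 counts in shmiR155HG replicate 2 and 0 in the other 5 libraries. CBS, the cystathionine synthase, had at most 7 counts in a library and shares sequence with its near-identical copy CBSL, which had at most 2. VLDLR, a lipoprotein receptor, had 10 to 38 counts in a library. With no filter on low counts, VLDLR had a log2 fold change of -0.42 (adjusted p = 0.750), and CBS and CHAC1, at or near the floor of counting, had adjusted p-values of 0.698 and 0.475.

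The changes between the groups were small and went both ways. Of the 43 genes tested, 4 rose in shmiR155HG cells (ATF5, SLC3A2, SLC7A5 and SLC1A5), 10 fell (EIF4EBP1, PSAT1, SHMT2, MTHFD2, ALDH18A1, EPRS, IARS, NARS, QARS and WARS) and 29 did not pass the test (edgeR quasi-likelihood test, adjusted p under 0.05 over all genes). Over all 12263 genes the same test called 7.26% higher and 8.02% lower. None of the 14 changes reached 1.5-fold. The fitted change was 13.6% to 24.0% for the genes that rose and -25.8% to -9.43% for those that fell. The rule of the study was recomputed here (exact test of edgeR, unadjusted P under 0.01 and fold change over 1.2). It kept 3 of the 14, ATF5, SLC3A2 and EIF4EBP1, since the other changes were under 1.2-fold. The median log2 fold change was -0.056 over the 43 genes and 0.00097 over all genes. ATF4 and its targets, with 25 tested, gave 4 higher and 5 lower and a median of -0.048. The 18 synthetases gave 0 higher and 5 lower and a median of -0.058. Values of the groups did not overlap for 8 of the 43 genes in the higher direction and for 16 in the lower one, against 15.2% and 15.6% of all genes. These are mixed RNA extracts, in which fewer cells with a transcript and less of it per cell cannot be told apart.

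**Figure D2:**
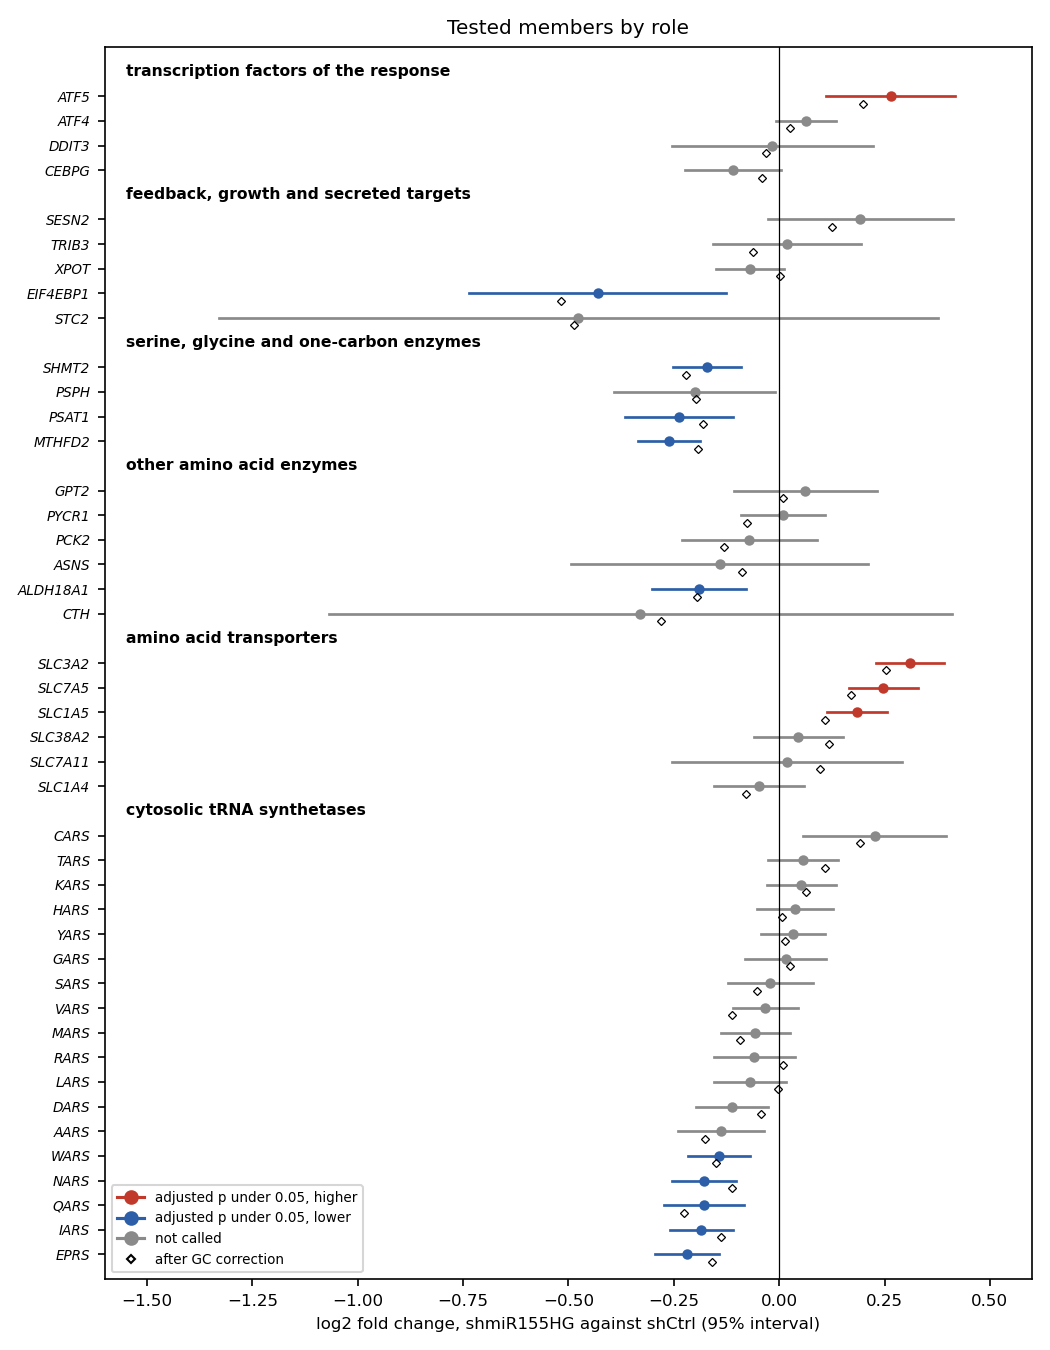
Log2 fold change of each of the 43 tested genes, shmiR155HG against shCtrl, with its 95% interval, grouped by role, with red for called higher, blue for called lower, grey for not called and diamonds for the value after correction for GC content. The 3 called transporters lie right of 0, the 4 serine and one-carbon genes left of it, and the synthetases that were called all lie on the left.

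Of the transcription factors of the response, only ATF5 passed the test. ATF4 (chr22:39519695-39522683 in hg38, + strand, 3 exons) had 322, 323 and 331 CPM in shCtrl replicates 1 to 3 and 343, 332 and 345 CPM in shmiR155HG replicates 1 to 3. Every shmiR155HG library lay above every shCtrl library, but the log2 fold change of 0.064 ± 0.034 SE (95% interval -0.0069 to 0.13) did not pass (adjusted p = 0.238). ATF5, a close relative of ATF4 that is likewise controlled at translation, had 35.4, 34.3 and 38.2 CPM in shCtrl replicates 1 to 3 and 44.5, 43.8 and 41.4 CPM in shmiR155HG replicates 1 to 3. It rose without overlap, from 36.0 ± 1.97 to 43.2 ± 1.65 CPM (SD, n = 3 each, log2 fold change 0.26 ± 0.074 SE, adjusted p = 0.0145). The call ended after correction for GC content (log2 fold change 0.20, adjusted p = 0.0678) and without shCtrl replicate 2 (adjusted p = 0.0779), shmiR155HG replicate 1 (0.0619) or shmiR155HG replicate 2 (0.0582). ATF5 also overlaps NUP62, which is transcribed from the opposite strand and had a log2 fold change of -0.034 (adjusted p = 0.619), and the use of strand in counting is not stated.

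DDIT3, also known as CHOP, a factor raised by sustained stress, had 21.3, 15.9 and 17.9 CPM in shCtrl replicates 1 to 3 and 18.6, 18.7 and 17.3 CPM in shmiR155HG replicates 1 to 3. Its values overlapped widely, with both the highest and the lowest library in shCtrl (log2 fold change -0.016 ± 0.12 SE, 95% interval -0.25 to 0.22, adjusted p = 0.954). DDIT3 overlaps MARS and MBD6, both on the opposite strand. CEBPG, a C/EBP partner of ATF4 and one of the genes with the CARE letters above, had 79.2, 79.5 and 79.3 CPM in shCtrl replicates 1 to 3 and 75.3, 72.6 and 72.7 CPM in shmiR155HG replicates 1 to 3. The shmiR155HG libraries were all lower, but the log2 fold change of -0.11 ± 0.056 SE did not pass (95% interval -0.22 to 0.0049, adjusted p = 0.207).

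The amino acid transporters held the clearest rises, with 3 of 6 higher, 0 lower and a median log2 fold change of 0.11. Over all genes the test called 7.26% higher and 8.02% lower. SLC3A2 encodes the heavy chain (CD98) that carries the light chain SLC7A5 (LAT1) to the membrane, and the pair takes up leucine and other large neutral amino acids. SLC3A2 (chr11:62856004-62888880, + strand, 9 exons) was at 206, 193 and 195 CPM in shCtrl replicates 1 to 3 and 248, 249 and 239 CPM in shmiR155HG replicates 1 to 3. Its mean rose from 198 ± 7.04 to 245 ± 5.38 CPM (SD, n = 3 each), without overlap (log2 fold change 0.31 ± 0.039 SE, adjusted p = 1.38e-06), and it kept its call under all 16 alternatives tried. SLC7A5 was at 164, 158 and 166 CPM in shCtrl replicates 1 to 3 and 191, 198 and 191 CPM in shmiR155HG replicates 1 to 3. Here too the groups stood apart, going from 163 ± 4.14 to 193 ± 4.25 CPM (SD, n = 3 each, log2 fold change 0.25 ± 0.040 SE, adjusted p = 6.66e-05). SLC1A5 (ASCT2), the transporter of glutamine, was at 298, 305 and 312 CPM in shCtrl replicates 1 to 3 and 347, 351 and 341 CPM in shmiR155HG replicates 1 to 3. It was the smallest of the 3 rises, from 305 ± 7.39 to 347 ± 4.81 CPM (SD, n = 3 each, log2 fold change 0.18 ± 0.035 SE, adjusted p = 3.98e-04), and again without overlap. After correction for GC content the rises of SLC3A2, SLC7A5 and SLC1A5 were 0.25, 0.17 and 0.11 on the log2 scale, with adjusted p = 2.75e-05, 0.00223 and 0.0239.

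The other transporters did not pass the test. They were SLC38A2, which carries small neutral amino acids and had a log2 fold change of 0.046, the cystine transporter SLC7A11 at 0.019, and SLC1A4, a carrier of serine and alanine, at -0.048. Their values overlapped between the groups. SLC1A4 and SLC1A5 both hold the CARE letters, and of the 6 transporters SLC7A11 was not searched.

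**Figure D3:**
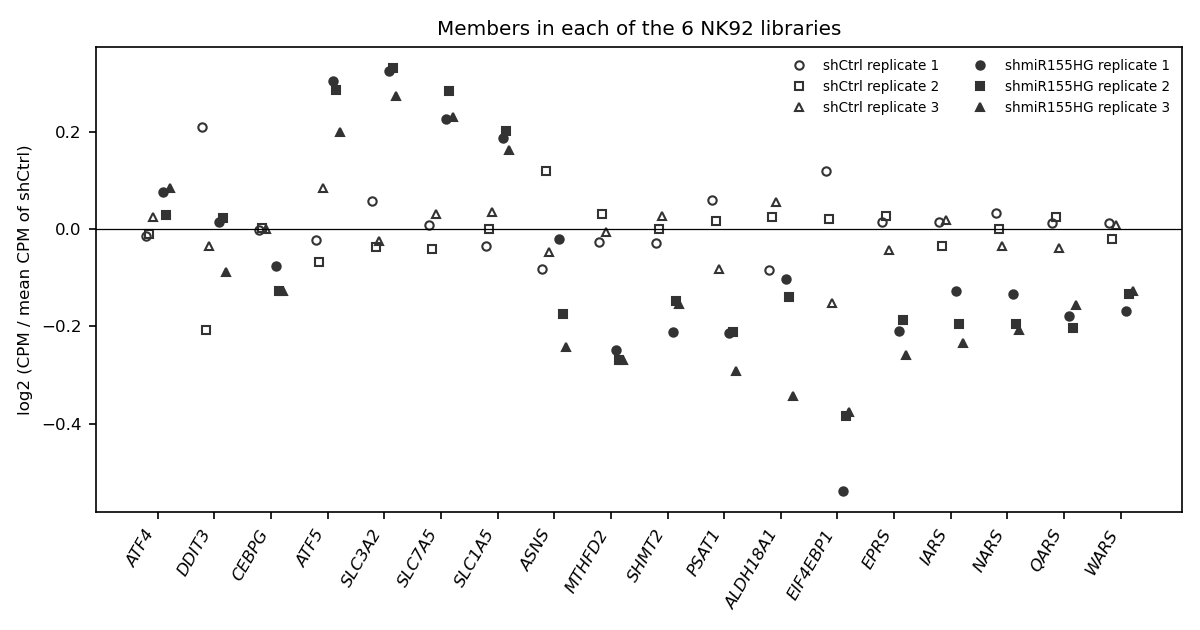
CPM of each library relative to the mean of the 3 shCtrl libraries, on the log2 scale, for the 14 genes that were called and for ATF4, DDIT3, CEBPG and ASNS, with open marks for shCtrl, filled marks for shmiR155HG and 1 mark shape for each replicate. The filled marks lie above the open marks for ATF4, ATF5 and the 3 transporters and below them for CEBPG and all genes from MTHFD2 to WARS, while those of DDIT3 and ASNS mix.

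The genes of serine, glycine and one-carbon metabolism went the other way. All 4 that were tested had lower values in every shmiR155HG library than in any shCtrl library, against 15.6% of all genes. Of these, 3 fell, against 8.02% of all genes, and the median log2 fold change of the 4 was -0.22. MTHFD2, the mitochondrial enzyme that oxidises methylene-tetrahydrofolate (chr2:74186172-74217565, + strand, 8 exons), was at 283, 294 and 287 CPM in shCtrl replicates 1 to 3 and 242, 239 and 239 CPM in shmiR155HG replicates 1 to 3. The shmiR155HG libraries lay close together and well under the shCtrl range, with means that went from 288 ± 6.01 to 240.2 ± 1.96 CPM (SD, n = 3 each, log2 fold change -0.26 ± 0.036 SE, adjusted p = 5.54e-06). SHMT2, which splits serine into glycine and a folate-bound carbon in mitochondria, was at 198, 202 and 206 CPM in shCtrl replicates 1 to 3 and 175, 183 and 182 CPM in shmiR155HG replicates 1 to 3. Its mean went from 202 ± 3.85 to 179.7 ± 4.30 CPM (SD, n = 3 each), without overlap (log2 fold change -0.17 ± 0.039 SE, adjusted p = 0.00295).

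PSAT1, the aminotransferase of the second step of serine synthesis, was at 72.2, 70.0 and 65.3 CPM in shCtrl replicates 1 to 3 and 59.6, 59.7 and 56.5 CPM in shmiR155HG replicates 1 to 3. It fell from 69.2 ± 3.49 to 58.6 ± 1.83 CPM (SD, n = 3 each, log2 fold change -0.24 ± 0.063 SE, adjusted p = 0.00892), and the call ended without shCtrl replicate 1 (adjusted p = 0.0591) or shmiR155HG replicate 3 (0.0540). PSPH, the phosphatase that releases serine in the last step, had a log2 fold change of -0.20 and did not pass (adjusted p = 0.158). The libraries thus held counts for the later enzymes of serine synthesis and 0 counts for PHGDH, which begins it. SHMT1 and MTHFD1, the cytosolic counterparts, are not among the 47 genes and fell too, with log2 fold changes of -0.36 ± 0.074 (SE, adjusted p = 0.00104) and -0.16 ± 0.035 (SE, adjusted p = 0.00160).

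Of the 6 other tested enzymes, 1 fell and 0 rose, against 8.02% and 7.26% of all genes. ALDH18A1, which starts proline synthesis from glutamate, was at 166, 179 and 183 CPM in shCtrl replicates 1 to 3 and 164, 160.1 and 139 CPM in shmiR155HG replicates 1 to 3. The groups did not overlap but nearly touched, and the fall from 176 ± 8.89 to 154 ± 13.5 CPM (SD, n = 3 each) rested partly on shmiR155HG replicate 3 (log2 fold change -0.19 ± 0.053 SE, adjusted p = 0.0176). Without that library the log2 fold change was -0.12 (adjusted p = 0.142), and without shCtrl replicate 2 or 3 the adjusted p was 0.0754 or 0.0930. PYCR1, which ends the same pathway, had a log2 fold change of 0.0093 (adjusted p = 0.934). PCK2, the mitochondrial PEP carboxykinase, was at -0.071 and the alanine aminotransferase GPT2 at 0.062, neither past the test, and CTH, with 1.29 to 2.95 CPM in a library, was at -0.33 ± 0.36 (SE, adjusted p = 0.615).

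ASNS, with the CARE letters printed above, was at 6.89, 7.92 and 7.06 CPM in shCtrl replicates 1 to 3 and 7.19, 6.46 and 6.16 CPM in shmiR155HG replicates 1 to 3. Its values overlapped, and the log2 fold change of -0.14 ± 0.17 SE did not pass (95% interval -0.49 to 0.21, adjusted p = 0.659). A long noncoding RNA on the same strand, AC079781.5, overlaps ASNS and was itself higher, at 17.8 ± 0.746 CPM in shCtrl and 23.6 ± 0.388 CPM in shmiR155HG (SD, n = 3 each, log2 fold change 0.41, adjusted p = 0.00529). This neighbour was chosen for its position over ASNS. ASNS held 27.4% to 31.4% of the counts of the pair in shCtrl and 21.0% to 23.1% in shmiR155HG, and how shared reads were split between them was not tested.

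The feedback, growth and secreted targets gave 1 fall among the 5 tested, against 8.02% of all genes. EIF4EBP1 (4E-BP1), which holds back cap-dependent translation until mTORC1 phosphorylates it, was at 11.8, 11.0 and 9.78 CPM in shCtrl replicates 1 to 3 and 7.48, 8.33 and 8.37 CPM in shmiR155HG replicates 1 to 3. It had the largest change of the called genes, from 10.9 ± 1.02 to 8.06 ± 0.503 CPM (SD, n = 3 each, log2 fold change -0.43 ± 0.15 SE, adjusted p = 0.0486), but at a low level and close to the threshold. The call ended in 10 of 16 alternatives, among them the replicate block (adjusted p = 0.0738), and held after correction for GC content (log2 fold change -0.52, adjusted p = 0.0178). SESN2, the leucine sensor sestrin 2, had no overlap between groups and a log2 fold change of 0.19 (adjusted p = 0.255). The pseudokinase TRIB3, a feedback inhibitor of the response, was at 0.018, and XPOT, the exporter of tRNA from the nucleus, at -0.068, neither past the test. STC2, a secreted glycoprotein, was low, with 0.651 to 1.77 CPM in a library, and its log2 fold change of -0.48 carried an SE of 0.42 (adjusted p = 0.508).

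Each of the 18 cytosolic synthetases was tested, and those that passed the test went down. The 5 that fell were EPRS, IARS, NARS, QARS and WARS, by 0.14 to 0.22 on the log2 scale, where 8.02% of all genes fell. Of the 18 log2 fold changes 12 were negative, and none of the 6 positive ones passed. EPRS, which charges both glutamate and proline tRNA (chr1:219968600-220046530, − strand, 32 exons), was at 286, 289 and 275 CPM in shCtrl replicates 1 to 3 and 245, 249 and 237 CPM in shmiR155HG replicates 1 to 3. Before correction for GC content it had the largest fall of the synthetases, from 283 ± 7.14 to 244 ± 6.24 CPM (SD, n = 3 each), without overlap (log2 fold change -0.22 ± 0.037 SE, adjusted p = 1.15e-04). IARS, for isoleucine, was at 322, 312 and 323 CPM in shCtrl replicates 1 to 3 and 292, 279 and 271 CPM in shmiR155HG replicates 1 to 3. The mean of IARS went from 319 ± 6.39 to 281 ± 10.5 CPM (SD, n = 3 each, log2 fold change -0.18 ± 0.037 SE, adjusted p = 7.37e-04), again with all shmiR155HG libraries lower.

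NARS, for asparagine, was at 288, 281 and 274 CPM in shCtrl replicates 1 to 3 and 256, 245 and 243 CPM in shmiR155HG replicates 1 to 3. It changed from 281 ± 6.63 to 248 ± 6.94 CPM (SD, n = 3 each, log2 fold change -0.18 ± 0.037 SE, adjusted p = 0.00112), without overlap. QARS, for glutamine, was at 128, 129 and 123 CPM in shCtrl replicates 1 to 3 and 112, 109.9 and 114 CPM in shmiR155HG replicates 1 to 3. The level of QARS went from 126 ± 2.95 to 112 ± 1.80 CPM (SD, n = 3 each), without overlap (log2 fold change -0.18 ± 0.046 SE, adjusted p = 0.00739). WARS, for tryptophan, which is also induced by interferon-γ, was at 269, 263 and 268 CPM in shCtrl replicates 1 to 3 and 237, 243 and 244 CPM in shmiR155HG replicates 1 to 3. Its mean moved from 267 ± 3.31 to 241 ± 3.68 CPM (SD, n = 3 each), the smallest of the called changes (log2 fold change -0.14 ± 0.036 SE, adjusted p = 0.00637).

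Several other synthetases stood close to the threshold. AARS and DARS were lower without overlap, with log2 fold changes of -0.14 (adjusted p = 0.0597) and -0.11 (adjusted p = 0.0658). CARS, for cysteine, had the largest positive log2 fold change of the synthetases and was at 31.5, 30.3 and 29.4 CPM in shCtrl replicates 1 to 3 and 33.9, 39.1 and 33.8 CPM in shmiR155HG replicates 1 to 3. These did not overlap, and the log2 fold change of 0.23 had an adjusted p of 0.0635. The rest (GARS, HARS, KARS, LARS, MARS, RARS, SARS, TARS, VARS and YARS) had log2 fold changes between -0.069 and 0.056. Of these, only HARS (higher) and RARS (lower) had groups that did not overlap. Of the synthetases that fell, EPRS, IARS, NARS and QARS overlap no other counted gene, while WARS overlaps WDR25 and a long noncoding RNA on the opposite strand. AARS, CARS, DARS, GARS, HARS, KARS, LARS, MARS and YARS also each overlap at least 1 counted gene on the opposite strand, and reads of such pairs cannot be told apart if strand was not used.

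Split by their known tie to ATF4, 4 of the 13 synthetases commonly given as responsive fell, against 8.02% of all genes. Of the other 5, 1 fell, which was QARS. The medians were -0.056 and -0.059 on the log2 scale. These near-equal medians did not hold after correction for GC content. Then 6 of the 13 and 1 of the 5 were lower, against 7.36% of all genes, with medians of -0.094 and 0.0060. The difference between the 2 sets was not tested. In the multi-tRNA synthetase complex, enzymes are held together by scaffold proteins. Of its 8 synthetases, 3 fell (EPRS, IARS and QARS), 0 rose and 7 had a negative log2 fold change, with a median of -0.091. These 3 are among the 5 falls already given for the synthetases, and 8.02% of all genes fell. For the CARE letters, the median log2 fold change was -0.052 for the 12 tested genes with the letters and -0.059 for the 21 tested genes with a promoter but without them. Among genes with a promoter, the letters were present for 2 of 4 that rose (SLC3A2 and SLC1A5), 2 of 8 that fell (IARS and NARS) and 8 of 21 that were not called. For SLC3A2 and SLC1A5 they were at only 1 of 3 starts.

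Related genes outside the 47 were looked at by list. Over all genes the test called 7.26% higher and 8.02% lower, and the counts in these short lists were not tested against those shares. Among 17 mitochondrial tRNA synthetases 3 fell and 0 rose, among them IARS2 (log2 fold change -0.18, adjusted p = 0.00283) and SARS2 (-0.38, adjusted p = 0.00723). Among 6 other subunits and scaffolds of cytosolic synthetases, FARSB, a subunit of the phenylalanine enzyme, fell (-0.16, adjusted p = 0.0184). The 6 kinases and sensors upstream of eIF2α gave 1 fall and 0 rises before correction for GC content, the fall being of EIF2AK2, the kinase PKR that senses double-stranded RNA (-0.24, adjusted p = 2.49e-04), while EIF2AK4, which encodes GCN2, was at 2.51 ± 0.566 CPM in shCtrl and 2.06 ± 0.0573 CPM in shmiR155HG (SD, n = 3 each, adjusted p = 0.604).

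Among 10 subunits of eIF2, its exchange factor and its phosphatases, PPP1R15A (GADD34), the subunit that directs the phosphatase to eIF2α, rose from 16.8 ± 1.87 to 24.2 ± 1.59 CPM (SD, n = 3 each, log2 fold change 0.53, adjusted p = 9.21e-04). In the same list EIF2S1, which encodes eIF2α, fell by 0.20 on the log2 scale (adjusted p = 9.42e-04), EIF2S3 by 0.15 (adjusted p = 0.00367) and EIF2B3 by 0.21 (adjusted p = 0.0422). Of 8 other stress response genes tested, 2 rose and 0 fell before correction for GC content. DDIT4 (REDD1), an inhibitor of mTORC1, rose from 173 ± 1.17 to 230.1 ± 2.50 CPM (SD, n = 3 each, log2 fold change 0.41, adjusted p = 5.51e-09), and GADD45A from 14.3 ± 1.70 to 22.7 ± 1.53 CPM (log2 fold change 0.67, adjusted p = 1.23e-04). Of 7 other amino acid transporters tested, SLC38A5 was higher (log2 fold change 0.14, adjusted p = 0.0179), with overlapping libraries. Of 13 other enzymes of one-carbon, proline, glutamine and glutathione metabolism tested, 4 fell and 0 rose, and beside SHMT1 and MTHFD1 these were GLUL, the glutamine synthetase (log2 fold change -0.22, adjusted p = 1.85e-05), and BCAT1, which transaminates branched-chain amino acids (-0.17, adjusted p = 0.0172). After the correction for GC content described next, FARSB (adjusted p = 0.204), EIF2S3 (0.116), SLC38A5 (0.138) and BCAT1 (0.190) no longer passed. Others passed only after it, so that the kinases and sensors gave 1 higher and 2 lower, with EIF2AK3, the kinase PERK, at a log2 fold change of 0.23 (adjusted p = 0.0200) and GCN1, an activator of GCN2, at -0.13 (adjusted p = 0.0152). The stress response genes then gave 3 higher and 1 lower, with MAP1LC3B, an autophagy gene, at 0.23 (adjusted p = 0.0414) and CEBPB, a further C/EBP factor, at -0.23 (adjusted p = 1.78e-04). CEBPB had no overlap between the groups and was at -0.12 (adjusted p = 0.0607) before correction. PPP1R15B, the constitutive counterpart of PPP1R15A, was at 0.16 (adjusted p = 0.00677) and GCLC, of glutathione synthesis, at 0.19 (adjusted p = 0.0302) after correction. These genes were named after their corrected values were seen.

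GC content moved with the change. Across the 12216 genes with a transcript in GENCODE, Spearman's rho between GC content and log2 fold change was 0.25 as a description, and it was 0.35 across the 43 genes tested here, which share the same 6 libraries. The 4 genes that rose had transcripts of 57.8% to 61.3% GC and the 10 that fell had 41.0% to 62.9%, against a median of 48.3% over all genes. After a correction of each library for GC content, chosen after seeing the data, rho over all genes was -0.044, and 3 of the 43 genes were higher and 12 lower, against 7.14% and 7.36% of all genes. Of the 14 calls 13 were kept. ATF5 was lost, and AARS (log2 fold change -0.18, adjusted p = 0.0124) and VARS (-0.11, adjusted p = 0.0282) were added as lower. The falls of MTHFD2 and PSAT1 became smaller, at -0.19 and -0.18 on the log2 scale, and that of SHMT2 larger, at -0.22. Among the called synthetases EPRS went to -0.16, IARS to -0.14 and NARS to -0.11 (adjusted p = 0.0272), all smaller, WARS to -0.15 and QARS to -0.23, so that QARS and not EPRS then had the largest fall of the synthetases. The synthetases then gave 0 higher and 7 lower with a median of -0.048, and ATF4 with its targets 3 higher and 5 lower with a median of -0.061.

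**Figure D4:**
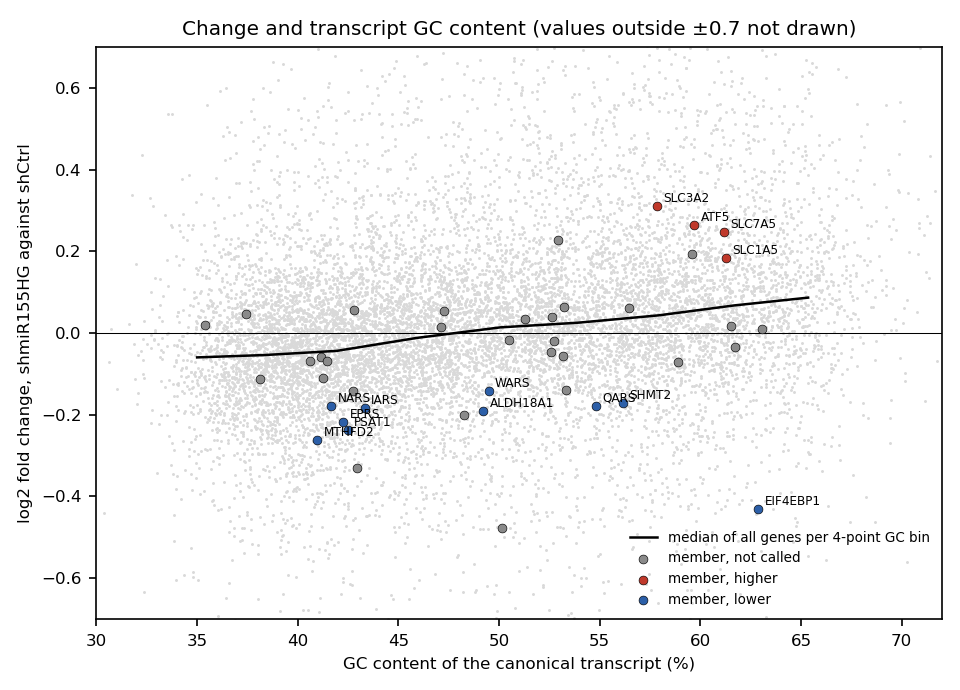
Log2 fold change (shmiR155HG against shCtrl) against the GC content of the canonical transcript for all genes tested (light grey) and for the 43 genes described here (coloured by call), with the median of all genes in GC bins as a black line. The 4 genes that rose lie between 57.8% and 61.3% GC, above the line, and the genes that fell lie under it at all GC contents, from MTHFD2 at 41.0% to EIF4EBP1 at 62.9%.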

How the data were processed

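Per the paper's methods, HISAT2 was used for alignment on hg38, followed by StringTie for known transcripts and prepDE.py3 for merging. The authors deposited read counts per gene without normalization, and those counts were used for all 6 libraries. The annotation release, the use of strand and the read length given to prepDE.py3 are not given in the sources used here, so a count may stand for part of a read.

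Genes above 1 CPM in at least 2 libraries were scaled with TMM (factors 0.997 to 1.003) and tested with edgeR's quasi-likelihood test (edgeR 4.0.16 in R 4.3.3, robust, Benjamini-Hochberg over 12263 genes, biological coefficient of variation 8.71%). All p-values are from this test, two-sided, unless another is named. CPM values use the TMM scaling. Depth, 33454786 to 39157264 counts, sets the precision, and limits on 0 counts use 3 counts and cover counting error only. Alternatives used limma 3.58.1 (voom) and DESeq2 1.42.0. The script was tested on simulated counts.

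The members and lists were chosen with earlier results of these data known. Full statistics were given to ATF4, DDIT3, ATF5, CEBPG, ASNS and each member past the threshold. Of the others, the 4 with the largest absolute log2 fold change were to be named (STC2, CTH, CARS and PSPH), and from each other list at most 4 called genes. Some genes outside the 47 are not reported here. Members added to these were named to account for all 47. Positions, transcript lengths and GC content came from GENCODE v44 on hg38, whose release may differ from the authors'. GC content was corrected by a loess curve (span 0.3) per library as offsets, chosen after seeing the data.

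Same-numbered libraries of the groups had deviations that correlated at -0.013, 0.012 and 0.020, against -0.035 to 0.025 for differently numbered ones. No pairing by number was thus seen in the counts. This does not settle whether same-numbered libraries were prepared together.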

Additional observations from a re-analysis of the deposited data

How the results depend on the processing

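The results were recomputed under 16 alternatives. Recomputed here under the rule of the study (exact test, unadjusted P under 0.01, fold change over 1.2), 551 of all genes were higher and 466 lower. Both counts are smaller than those the paper reports for this comparison, and the reason was not tested. Among the 47 genes 2 were higher and 1 lower, all of them among ATF4 and its targets (2 and 1), and 0 synthetases were lower. The smaller counts among the 47 genes follow from the fold threshold. With each library left out in turn, 580 to 891 of all genes were higher, with 580 without shmiR155HG replicate 2, and 2 to 4 of ATF4 and its targets were lower, with 3 without shCtrl replicate 1 or 2 and 2 without shmiR155HG replicate 3. The cause was not tested. DDIT3, not called in any of them, had log2 fold changes of -0.11 to 0.10 when a library was left out, being positive without shCtrl replicate 1 (0.10) and without shmiR155HG replicate 3 (0.020). With the replicate block, 13 of the 14 calls were kept and EIF4EBP1 was lost (adjusted p = 0.0738). Scaling by DESeq2's size factors, halved counts and DESeq2's Wald test kept all 14, while scaling by total counts, no filter, filterByExpr and limma-voom lost EIF4EBP1 only. Leaving out a library kept 11 to 13 of the 14, and those lost were ATF5, EIF4EBP1, PSAT1 and ALDH18A1. VLDLR, left out by the filter of 1 CPM, was tested with filterByExpr and with no filter, and CBS and CHAC1 with no filter only, and none of the 3 passed. PHGDH, at 0 counts, entered no fit.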
